A study of Mus musculus with 2 samples.

Results

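The mouse mitochondrial genome encodes 37 genes, and all 37 had a row in the deposited count table of 39017 genes. They were chosen by their symbol, which starts with mt-, and by their place on chromosome M in the GENCODE M21 annotation (mm10). They comprise 2 ribosomal RNAs, 22 transfer RNAs and 13 protein-coding genes. Of the 37, 19 had at least 20 counts summed over both libraries and are called measured below, as were 13880 genes of the whole table. The libraries came from Lin- Sca-1+ c-Kit+ (LSK) bone marrow cells, which hold the haematopoietic stem cells and multipotent progenitors. The miR-146a-/- LSK library came from a pool of 6 mice that lack the microRNA miR-146a, and the WT LSK library from a pool of 12 mice. Both pools were of the C57BL/6J background and 10 to 14 weeks old. Total RNA was depleted of ribosomal RNA before sequencing.

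Each genotype had 1 library from 1 pool, so no difference between the libraries has a replicate check and no test was possible. The libraries held 22231389 counts (miR-146a-/-) and 35069136 counts (WT). Intervals are exact 95% Clopper-Pearson intervals and cover counting error only. A gene was called higher or lower in miR-146a-/- when its whole interval lay beyond 1.5-fold. Mir146 had 0 counts in both libraries, so the deleted gene gave no check of the labels. Of the markers of LSK cells, 9 of 9 were measured, with a summed level of 2956 CPM in miR-146a-/- and 2604 CPM in WT, and 0 were called higher or lower. CPM stands for counts scaled to a common library size, here with the trimmed mean of M-values (TMM). The female-specific RNA Xist had 49105 counts in miR-146a-/- and 10988 in WT, so the sex make-up of the pools cannot be told apart from genotype.

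Mitochondrial DNA is a small circle that is transcribed in both directions into long RNAs. Most protein-coding and ribosomal RNA genes are flanked by tRNA genes, and excision of the tRNAs releases the RNAs between them. Genes are named heavy-strand or light-strand by the DNA strand that serves as template. The protein-coding genes specify subunits of complexes I, III, IV and V of oxidative phosphorylation, whose other subunits are encoded in the nucleus. The rRNAs and tRNAs serve the mitochondrial ribosome that makes those proteins. Resting haematopoietic stem cells are known for a low reliance on oxidative phosphorylation.

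Several mitochondrial genes have near-identical copies in the nuclear genome, and these are shown first because reads from such genes match both places. Nuclear copies are stretches of mitochondrial DNA that were inserted into the chromosomes, and several are annotated as pseudogenes. On chromosome 1, 7 such pseudogenes between 24611535 and 24616197 lay in the same order as the mitochondrial genes. Their matched parts spanned the mitochondrial bases from 6390 to 11042, with gaps of up to 233 bases between them. The 3 pairs below, from the GENCODE M21 transcripts (mm10), show an identical copy, a copy with 1 difference and a more diverged copy. Capitals mark the bases that differ within a pair, and positions are counted from 1 at the first base of the mitochondrial gene.
mt-Co2, chrM:7013-7072 (plus strand): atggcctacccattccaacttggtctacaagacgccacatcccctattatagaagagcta
Gm28661, chr1:24615506-24615565 (minus strand): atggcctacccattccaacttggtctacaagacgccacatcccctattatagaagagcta
mt-Nd3, chrM:9459-9518 (plus strand): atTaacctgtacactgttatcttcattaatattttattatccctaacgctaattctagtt
Gm28438, chr1:24613060-24613119 (minus strand): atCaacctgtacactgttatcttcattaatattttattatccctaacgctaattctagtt
mt-Cytb, chrM:14146-14205 (plus strand): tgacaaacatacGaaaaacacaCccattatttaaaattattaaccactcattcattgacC
Gm11410, chr4:80003990-80004049 (plus strand): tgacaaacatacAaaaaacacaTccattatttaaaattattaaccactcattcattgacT

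The copy of mt-Co2 had 0 mismatches over 681 aligned bases. The copy of mt-Nd3 differed at 1 of 345 aligned bases, T3C. The copy of mt-Cytb on chromosome 4 differed at 81 of 1142 aligned bases, of which G14A, C24T and C61T lie in the stretch shown. The copies of mt-Atp6, mt-Co3 and mt-Nd4l on chromosome 1 had 0 mismatches over 678, 783 and 294 bases, and that of mt-Nd4 had 0 over its first 876 of 1378 bases. mt-Atp8 has no annotated copy of its own, but the pseudogenes of its neighbours mt-Co2 and mt-Atp6 are 233 bases apart on chromosome 1, and the matched parts of the genes are 233 bases apart on the mitochondrial genome.

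**Figure D1:**
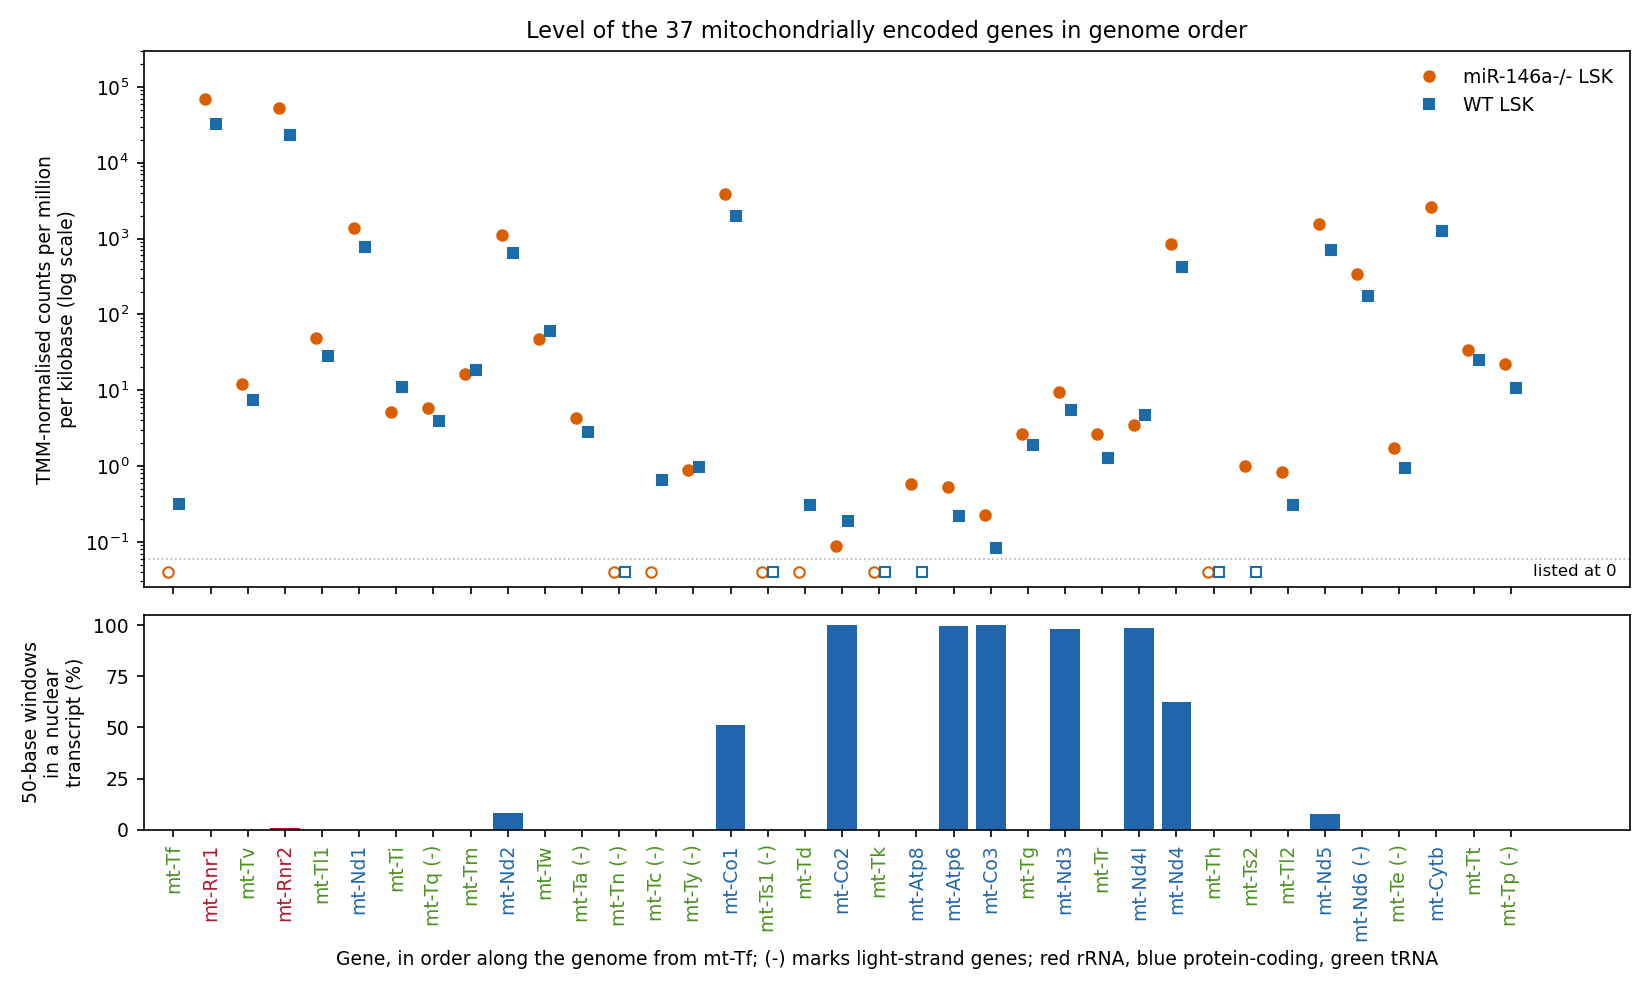
Upper panel: TMM-normalised CPM per kilobase of the 37 genes in genome order (log axis; open symbols are genes listed at 0), miR-146a-/- LSK in orange left of WT LSK in blue. Lower panel: share of the 50-base windows of each gene found letter for letter in a nuclear transcript; mt-Co2, at 100%, had 1 count in miR-146a-/- and 6 in WT, while mt-Cytb, at 0%, had 49340 and 67595.

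Levels fell into separate bands along the genome, as the plot of levels in genome order shows. The windows used there are all runs of 50 bases of a gene, sought on both strands of the annotated nuclear transcripts. For mt-Co2, mt-Atp6 and mt-Co3, 99.5% to 100% of windows were found in a nuclear transcript, and none of these genes had more than 7 counts in a library. mt-Co2 had 1 count in miR-146a-/- and 6 in WT, mt-Atp6 had 6 and 7, and mt-Co3 had 3 and 3. mt-Co2 and mt-Co3 encode core subunits of cytochrome c oxidase (complex IV) and mt-Atp6 a subunit of the ATP synthase (complex V). mt-Atp8, the other ATP synthase gene, had 2 counts in miR-146a-/- and 0 in WT, although 0% of its windows were found in a nuclear transcript. The upper limit that 0 counts allow is 3 counts, or 0.0644 normalised CPM in the WT library. mt-Nd3 (98.0% of windows shared) had 55 counts in miR-146a-/- and 90 in WT, and mt-Nd4l (98.8% shared) had 17 and 65. In contrast, mt-Co1 (51.1% shared) and mt-Nd4 (62.2% shared), which lie partly outside the chromosome 1 stretch, had between 19456 and 143797 counts in each library. Low counts of mt-Co2, mt-Atp8, mt-Atp6, mt-Co3, mt-Nd3 and mt-Nd4l were seen in both libraries. How reads that match both places were assigned is not given in the sources used here, and the part of the copies in the low counts was not tested. No direction can be read for complex V, since its genes were not measured.

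Among the 19 measured genes, 9 were higher in the miR-146a-/- library, 0 were lower and 10 were neither. Across all measured genes, 6.87% were called in either direction and 5.35% were higher. The 9 were both rRNAs, mt-Nd1, mt-Nd2, mt-Co1, mt-Nd4, mt-Nd5, mt-Nd6 and mt-Cytb, that is, every mitochondrial gene with 1000 or more summed counts. Of the 7361 genes with that many counts in the whole table, 3.8% were higher. With a stricter bound of 2-fold, mt-Rnr1, mt-Rnr2, mt-Nd5 and mt-Cytb were still higher, against 2.12% of all measured genes. The median log2 ratio of the 19 genes, miR-146a-/- over WT, was 0.78, beside a median of -0.01 over all measured genes. In bulk RNA, more mitochondrial RNA per cell and more cells rich in mitochondrial RNA cannot be told apart.

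These directions are relative to TMM scaling, in which features with ribosomal RNA sequence weigh little. Such features held 34.9% of counts in miR-146a-/- and 5.10% in WT, led by the long non-coding RNA gene Gm42418, with 6045075 counts in miR-146a-/- and 747309 in WT. Scaled by total counts instead, the median over all genes was -0.83 and that of the 19 mitochondrial genes -0.041, 0 mitochondrial genes were higher, 9 had a positive and 10 a negative ratio, and mt-Ti and mt-Tw were lower. The mitochondrial median lay 0.79 above the median of all genes in both scalings. Scaling moves every ratio by nearly the same amount, so this gap could not change much and is no check of the directions. As a share of the whole library, the 37 genes together held 12.5% of counts in miR-146a-/- and 10.0% in WT.

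**Figure D2:**
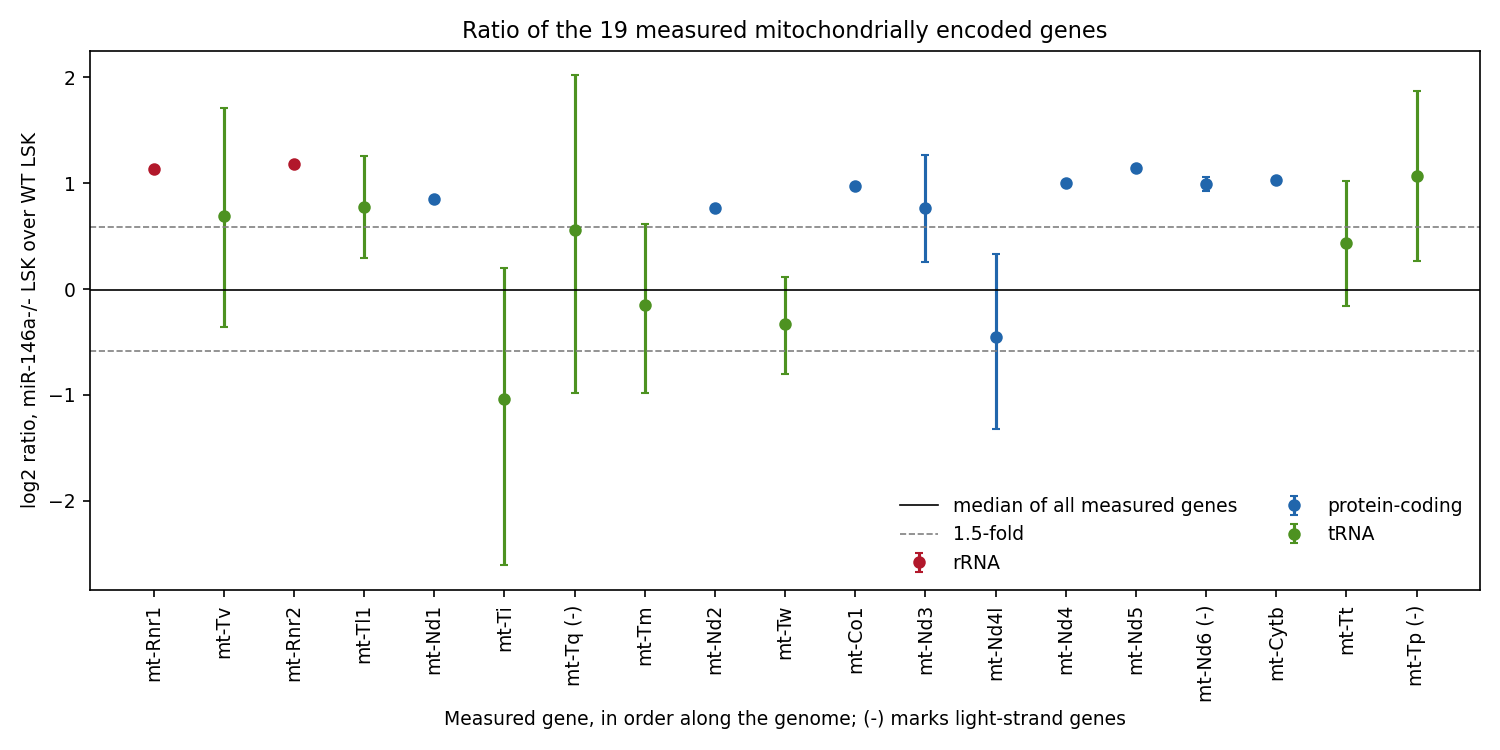
Log2 ratio of miR-146a-/- LSK over WT LSK for the 19 measured genes in genome order, with exact 95% counting intervals (narrower than the symbol for most abundant genes). The 2 rRNAs (red) and the 7 abundant protein-coding genes (blue) lie between 0.77 and 1.18, mt-Nd3 is at 0.76 and mt-Nd4l at -0.45, while the tRNAs (green) spread from -1.03 to 1.06.

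The rRNAs of the mitochondrial ribosome had the highest levels of all mitochondrial genes, and mt-Rnr2 had the highest ratio, with mt-Rnr1 just below mt-Nd5. mt-Rnr1, the 12S rRNA of the small ribosomal subunit (chromosome M, 70 to 1024), had 1121504 counts in miR-146a-/- and 1427360 in WT. Its normalised level was 67097 CPM in miR-146a-/- and 30636 in WT, a log2 ratio of 1.13 (1.13 to 1.13). mt-Rnr2, the 16S rRNA of the large subunit (1094 to 2675), had 1398926 counts in miR-146a-/- and 1723964 in WT, a log2 ratio of 1.18 (1.17 to 1.18). The rRNAs thus differed from each other by only 0.05 (0.04 to 0.05) on the log2 scale. By total counts their summed log2 ratio was 0.34, which is still positive but not beyond 1.5-fold. Together they made up 11.3% of all counts in miR-146a-/- and 8.99% in WT.

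The rRNA class stood above the protein-coding class by 0.17 (0.16 to 0.18) on the log2 scale, a difference that no library scaling can move. In counts, 9.66 rRNA reads were seen per protein-coding read in miR-146a-/- and 8.57 in WT. The libraries were depleted of ribosomal RNA, and which rRNAs the depletion addressed is not given in the sources used here. Beside the mitochondrial rRNAs, the nuclear features with ribosomal RNA sequence Mir6236, Gm15564, Gm24270, Lars2 and Gm42418 had log2 ratios of 6.12, 5.61, 5.56, 5.50 and 4.49, and Gm26917 one of 1.01. Lars2 is the gene of the mitochondrial leucyl-tRNA synthetase, whose counts moved with those features. The part of depletion in the mitochondrial rRNA ratios was not tested.

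Of the 13 protein-coding genes, 9 were measured, 7 of them higher, 0 lower and 2 neither. Summed over the class, the level was 15615 normalised CPM in miR-146a-/- and 7895 in WT, a log2 ratio of 0.98 (0.98 to 0.99). Levels per kilobase ran from 345 for mt-Nd6 to 3910 for mt-Co1 among the 7 abundant genes in miR-146a-/-, and from 174 to 1998 in WT. The order of the 7 was almost shared: mt-Co1 was first and mt-Cytb second in both libraries, and mt-Nd4 and mt-Nd6 were the lowest. mt-Nd5 (1539 in miR-146a-/- and 697 in WT) lay above mt-Nd1 (1384 and 770) in miR-146a-/- and below it in WT. Part of mt-Co1 and mt-Nd4 is shared with nuclear copies, and the part of that in their levels was not tested.

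Genes of complex I, the NADH dehydrogenase that takes in electrons at the start of the chain, had 5 of 7 members higher. mt-Nd1 had 22136 counts in miR-146a-/- and 34347 in WT, a log2 ratio of 0.85 (0.82 to 0.87). mt-Nd2 had 19099 counts in miR-146a-/- and 31280 in WT, a log2 ratio of 0.77 (0.74 to 0.79), the lowest of the abundant genes, and its sign turned to -0.054 by total counts. mt-Nd4 had 19456 counts in miR-146a-/- and 27173 in WT, a log2 ratio of 0.997 (0.97 to 1.02). These membrane subunits form part of the proton-pumping arm of the complex. mt-Nd5, the longest mitochondrial gene, had 46909 counts in miR-146a-/- and 59253 in WT, a log2 ratio of 1.14 (1.12 to 1.16). mt-Nd3 was at 0.76 (0.26 to 1.27), just below the abundant complex I genes, with an interval that reached below 1.5-fold. mt-Nd4l was at -0.45 (-1.32 to 0.33) and was the only measured protein-coding gene with a negative ratio. Its difference from mt-Nd4, with which it overlaps by 7 bases, was -1.45 (-2.22 to -0.68). Both mt-Nd3 and mt-Nd4l rest on counts from sequence nearly all shared with chromosome 1.

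Complexes III and IV each had 1 measured mitochondrial gene. mt-Cytb, the cytochrome b of complex III (14145 to 15288), had 49340 counts in miR-146a-/- and 67595 in WT, a log2 ratio of 1.02 (1.01 to 1.04). mt-Co1, the catalytic subunit of cytochrome c oxidase (5328 to 6872), had 100982 counts in miR-146a-/- and 143797 in WT, a log2 ratio of 0.97 (0.96 to 0.98). Both were close to the class sum of 0.98.

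**Figure D3:**
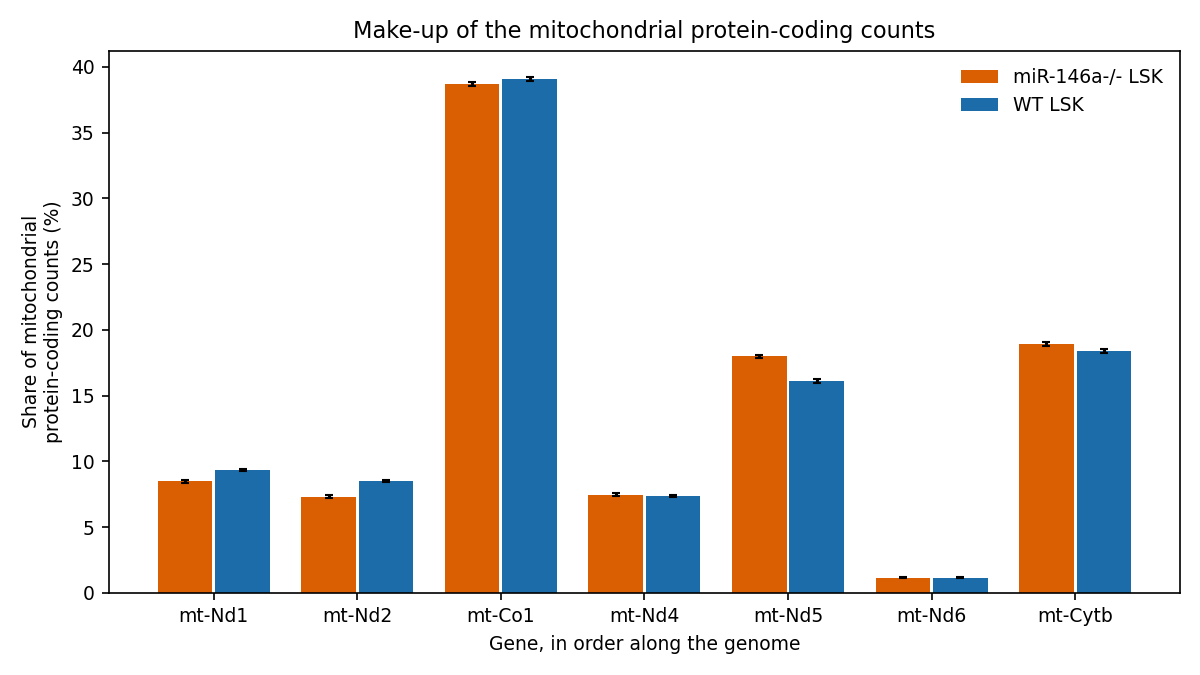
Share of the mitochondrial protein-coding counts held by each of the 7 abundant genes, in genome order, miR-146a-/- LSK left of WT LSK; error bars are exact 95% counting intervals. mt-Nd1 and mt-Nd2 held smaller shares in miR-146a-/- and mt-Nd5 a larger one, while mt-Nd6 held 1.15% in miR-146a-/- and 1.14% in WT. The 6 protein-coding genes not shown held 84 counts in miR-146a-/- and 171 in WT.

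The make-up of the protein-coding counts, which does not depend on library scaling, shifted along the genome. The 6 protein-coding genes below 1000 counts held only 84 of these counts in miR-146a-/- and 171 in WT. The shares therefore describe the 7 abundant genes, of which mt-Co1 and mt-Nd4 are partly shared with nuclear copies. mt-Nd1 held 8.48% of the protein-coding counts in miR-146a-/- and 9.34% in WT, and mt-Nd2 held 7.32% in miR-146a-/- and 8.50% in WT. At the other end, mt-Nd5 held 18.0% in miR-146a-/- and 16.1% in WT, and mt-Cytb held 18.9% in miR-146a-/- and 18.4% in WT. mt-Co1, between them, held 38.7% in miR-146a-/- and 39.1% in WT. The summed log2 ratio of mt-Nd4, mt-Nd5 and mt-Cytb exceeded that of mt-Nd1, mt-Nd2 and mt-Co1 by 0.15 (0.13 to 0.16), and mt-Nd5 exceeded mt-Nd2 by 0.37 (0.34 to 0.41). This grouping by place was made after the values were seen. Over the 7 abundant protein-coding genes, Spearman's rho of the ratio was 0.79 with genomic position and 0.54 with gene length; all 7 points come from the same pair of libraries. The rRNAs, which lie before mt-Nd1, did not follow that order, and over all 9 abundant genes rho with position was -0.05. Position and length could not be separated with so few genes.

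On the light strand, mt-Nd6, a complex I subunit, is the only protein-coding gene (13552 to 14070). It had 2997 counts in miR-146a-/- and 4197 in WT, a log2 ratio of 0.99 (0.92 to 1.06). The 12 heavy-strand protein-coding genes summed to 258006 counts in miR-146a-/- and 363616 in WT, a log2 ratio of 0.98 (0.98 to 0.99). The difference between strands was 0.01 (-0.06 to 0.08), so no difference between the strands was resolved beyond counting error. Against its overlapping neighbour mt-Nd5, mt-Nd6 was lower by a difference of -0.15 (-0.22 to -0.08), and against mt-Cytb the difference was -0.03 (-0.10 to 0.04). The libraries were labelled single-stranded, but whether the counting used strand is not stated, so heavy-strand reads across mt-Nd6 could not be told from its own.

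The tRNA genes had few counts: the 22 together had 239 in miR-146a-/- and 557 in WT, and 14 of them had fewer than 20 summed over both. tRNAs are short and heavily modified, and standard RNA libraries capture them poorly. mt-Tn, mt-Ts1, mt-Tk and mt-Th had 0 counts in both libraries, and the other 10 below 20 had from 1 to 14 summed counts, with mt-Ta just under the threshold at 5 and 9 and mt-Tq just on it at 7 and 13. The 5 tRNA genes inside the chromosome 1 stretch had 6 counts in miR-146a-/- and 11 in WT. Below are the 3 measured tRNA genes with a negative ratio and the 2 most counted ones with a positive ratio, with the anticodon in capitals, as read from the same transcript set.
mt-Ti (isoleucine), chrM:3706-3774 (plus strand): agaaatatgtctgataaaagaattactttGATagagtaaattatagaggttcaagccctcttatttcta
mt-Tw (tryptophan), chrM:4950-5016 (plus strand): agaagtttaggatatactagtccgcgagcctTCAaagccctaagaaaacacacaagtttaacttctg
mt-Tm (methionine), chrM:3845-3913 (plus strand): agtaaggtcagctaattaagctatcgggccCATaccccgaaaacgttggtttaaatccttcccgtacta
mt-Tl1 (leucine), chrM:2676-2750 (plus strand): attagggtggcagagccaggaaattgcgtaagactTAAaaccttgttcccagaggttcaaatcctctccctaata
mt-Tt (threonine), chrM:15289-15355 (plus strand): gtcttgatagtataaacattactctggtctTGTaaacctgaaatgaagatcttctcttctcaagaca

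Of the 8 measured tRNA genes, 0 were higher and 0 lower, and their median log2 ratio was 0.50. mt-Tw, which overlaps the end of mt-Nd2 by 2 bases, had the most counts, 53 in miR-146a-/- and 186 in WT, with a log2 ratio of -0.33 (-0.80 to 0.12). mt-Ti had 6 counts in miR-146a-/- and 35 in WT, a ratio of -1.03 (-2.61 to 0.20), and mt-Tm had 19 and 59 counts, a ratio of -0.15 (-0.98 to 0.61). These 3 lie between mt-Nd1 and mt-Co1, as does the light-strand mt-Tq, whose ratio was positive. mt-Tl1, which sits between mt-Rnr2 and mt-Nd1 with 0 bases on either side, had 61 counts in miR-146a-/- and 99 in WT, a ratio of 0.78 (0.30 to 1.25). mt-Tt had 38 counts in miR-146a-/- and 78 in WT (0.44, -0.16 to 1.02). The other 3 were the valine tRNA mt-Tv (14 and 24 counts, 0.68), the glutamine tRNA mt-Tq (7 and 13 counts, 0.56) and the light-strand mt-Tp, the proline tRNA (25 and 33 counts, 1.06, 0.27 to 1.87).

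Summed as a class, the tRNA genes had a lower ratio than the protein-coding genes. mt-Tw alone held 53 of the 239 tRNA counts in miR-146a-/- and 186 of the 557 in WT. The log2 ratio of the tRNA sum was 0.26 (0.03 to 0.48), and its difference from the protein-coding sum was -0.73 (-0.94 to -0.51), whatever the scaling; by total counts the tRNA sum itself was negative, at -0.56. tRNA counts came to 0.0916% of the protein-coding counts in miR-146a-/- and 0.151% in WT. mt-Tw differed from mt-Nd2 by -1.10 (-1.54 to -0.66), and mt-Ti from mt-Nd1 by -1.91 (-3.16 to -0.66). mt-Tl1 did not follow them: its difference from mt-Nd1 was -0.06 (-0.53 to 0.40). The ratio of mt-Tp, 1.06, lay above the protein-coding sum of 0.98, and the other measured tRNA genes lay below it. By strand, the 14 heavy-strand tRNA genes summed to a ratio of 0.17 (-0.08 to 0.41) and the 8 light-strand ones to 0.82 (0.21 to 1.42), a difference of 0.66 (0.037 to 1.28) that rests on 40 light-strand counts in miR-146a-/- and 63 in WT. Beside these values, the 84 measured nuclear features with transcripts under 100 bases had a median of 0.46, and the 2383 nuclear protein-coding genes with transcripts of 500 to 2000 bases, the size range of the abundant mitochondrial genes, had a median of -0.17. The part of transcript size in the class differences was not tested.

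**Figure D4:**
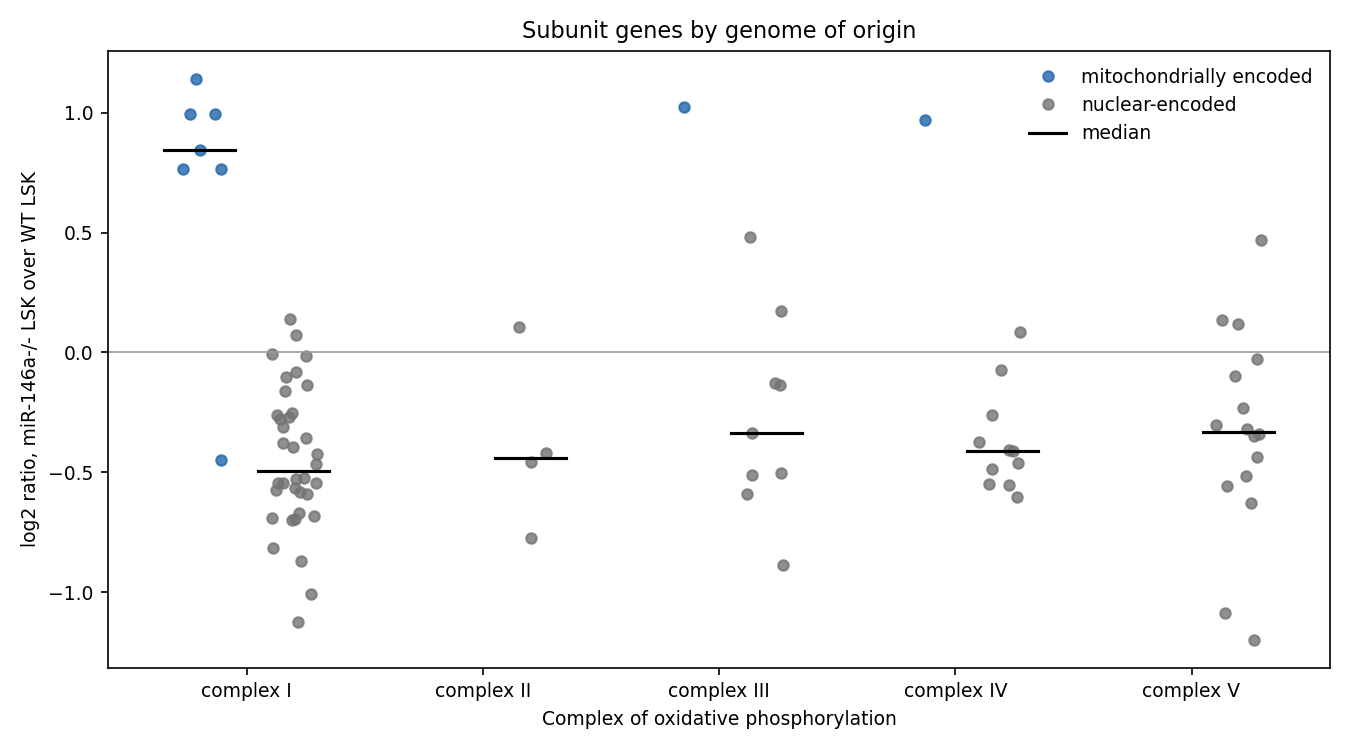
Log2 ratio of miR-146a-/- LSK over WT LSK for subunit genes of each complex, mitochondrially encoded genes (blue) left of nuclear-encoded ones (grey), with the median as a bar where more than 1 gene was measured. For complexes I, III and IV the mitochondrial genes lie between 0.76 and 1.14, apart from mt-Nd4l at -0.45, while most nuclear genes lie below 0; no mitochondrial gene of complex V was measured, and complex II has none.

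The nuclear genes for subunits of the same complexes gave no higher calls. Of 72 measured nuclear genes for complexes I, III, IV and V, 0 were higher, 4 lower and 68 neither, where 6.87% of all measured genes were called. Their median log2 ratio was -0.41, and 64 of 72 ratios were negative. Over all measured nuclear protein-coding genes the median was -0.03, and 6570 of 12304 ratios were negative. Among those with transcripts of 500 to 2000 bases the median was -0.17, and 1540 of 2383 were negative. The medians were -0.49 for 36 genes of complex I, -0.34 for 9 of complex III, -0.41 for 11 of complex IV and -0.33 for 16 of complex V. For complex II, which has no mitochondrial gene, the median of 4 genes was -0.44. In counts, 5.26 mitochondrial protein-coding reads were seen per nuclear subunit read in miR-146a-/- and 2.17 in WT. The mitochondrial reads came almost wholly from the 7 abundant genes, none of them of complex V, while the nuclear reads cover complexes I, III, IV and V.

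In complex I, the accessory subunit Ndufc1 was lower at -1.13 (-1.60 to -0.69), and the highest member was Ndufv3 at 0.14. In complex III, Uqcr11 was lower at -0.89 and Uqcrq stood at 0.48. In complex IV, Cox6a1 was at 0.09 and Cox7a2 at -0.60, and 0 of 11 were called. In complex V, the short subunit genes Atp5e (-1.20) and Atp5j2 (-1.09) were lower and Atp5l stood at 0.47. The iron-sulphur subunit of complex II, Sdhb, was lower at -0.78 but not called with the filter of 200 or more counts (-0.74), and its membrane anchor Sdhc was at 0.11. All of these nuclear ratios are relative to TMM scaling, and each lay 0.82 further down by total counts, apart from the small effect of the prior count.

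Nuclear genes that copy, transcribe and process mitochondrial DNA and RNA were examined in 5 lists. Of 78 measured members, 1 was higher and 3 lower, where 6.87% of all measured genes were called. Of these 78 ratios 68 were negative, as were 6570 of 12304 over all nuclear protein-coding genes. For mitochondrial transcription, 10 of 10 ratios were negative, with a median of -0.34. Tfam, the factor that packages mitochondrial DNA and starts its transcription, had 274 counts in miR-146a-/- and 1340 in WT and was lower at -0.81 (-1.004 to -0.62). The mitochondrial RNA polymerase Polrmt was at -0.42 and the initiation factor Tfb2m at -0.06, the highest of the list. For replication and maintenance, 1 of 13 was higher and the median was -0.31. Polg2, the accessory subunit of the mitochondrial DNA polymerase, had 258 counts in miR-146a-/- and 276 in WT and was higher at 1.38 (1.13 to 1.63). By total counts it was at 0.56 (0.31 to 0.81) and was not called. The catalytic subunit Polg was at -0.39 and the helicase Twnk at -0.66.

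For RNA processing and decay, 2 of 37 were lower, 0 higher, and the median was -0.34. Mrm3, a methyltransferase of the 16S rRNA, was lower at -1.24 (-1.69 to -0.82), as was Ngrn, which takes part in 16S rRNA biogenesis, at -0.90. Ngrn was not called with DESeq2 size factors, where it was at -0.89 with an upper limit of -0.58. The partners Lrpprc and Slirp, which stabilise mitochondrial mRNAs, were at -0.58 and -0.48, and the highest abundant member was Nsun3 at 0.25. For translation factors, 0 of 12 were called and the median was -0.23, from Oxa1l at 0.09 to Tsfm at -0.83. For regulators of mitochondrial biogenesis, 0 of 6 were called and the median was -0.03, with the coactivator Ppargc1a at 0.59 and the nuclear receptor Esrra at -0.49. By total counts every ratio moved by -0.82, apart from the small effect of the prior count. The medians of the 5 lists then ran from -1.16 to -0.85, beside -0.83 over all measured genes and -0.041 for the mitochondrial genes. That shift fixed the negative sign of the list medians, so it is no second check of them.

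The nuclear copies with a count here had few. Those with most counts were Gm13340, with 35 counts in miR-146a-/- and 61 in WT, Gm13341 with 12 and 25, and Gm11512 with 8 and 13. Of the 7 copies on chromosome 1, Gm10222, the copy of mt-Nd4l, had 7 counts in miR-146a-/- and 3 in WT. The other 6 had no row in the deposited count table. With the counted copies added to the protein-coding class, its log2 ratio was 0.98; that value holds nothing of those 6, which include the identical copies of mt-Co2, mt-Atp6 and mt-Co3.

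Markers of other cell types were set beside these results. Of 49 markers of 7 other blood cell types, 34 were measured, 7 were higher and 4 lower, where 6.87% of all measured genes were called, and their median was 0.22. The summed level of a list ran from 5.86 to 281 normalised CPM in miR-146a-/- and from 3.69 to 328 in WT. Of T and NK cells, Gzmb (13 counts in miR-146a-/- and 9 in WT), Cd247 (58 and 56) and Cd4 (68 and 86) were higher. Also higher were Gp1ba, Gp9 and Vwf of megakaryocytes, and F13a1 of monocytes and macrophages. By total counts none of the 7 higher markers was called higher. Other markers of the same lists with more counts were not called: Nkg7 of T and NK cells was at -0.12, Itga2b of megakaryocytes at 0.14, and Csf1r and Lyz2 of monocytes and macrophages at 0.72 and -0.29. Lower were Ltf, Ngp and S100a9 of neutrophils and Jchain of plasma cells, while Sdc1 of plasma cells was at 0.26 and the erythroid gene Tfrc at 0.06. Among the LSK markers, Slamf1 was at 0.66 and Procr at -0.39. The T cell genes Cd3d, Cd3e and Cd8a and the erythroid gene Alas2 were at 0 in both libraries. The part of other cells in the mitochondrial ratios was not tested.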

How the data were processed

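Long RNA of LSK cells was measured in 1 library per genotype. The authors deposited whole-number read counts per Ensembl gene, not normalised. Per the file headers, splice junctions were placed on the genome and duplicates were flagged. Tools listed by the submitters' processing notes, with no role, are STAR 2.5.3a and Salmon 0.9.0; the build is mm10. How reads were counted, by strand or not, and how reads that match several places were handled is not given in the sources used here. GENCODE M21 named 37607 of 39017 gene IDs. All 37 mitochondrial genes had the same positions in RefSeq.

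Effective library sizes came from TMM in edgeR 4.0.16 (R 4.3.3) over genes with 20 or more summed counts. edgeR's quasi-likelihood test could not be run with 1 library per genotype, so no p-value is given. Log2 ratios used a prior count of 0.5 scaled to the library, and intervals were exact Clopper-Pearson intervals of the binomial share (SciPy 1.17.1, Python 3.11.15). The calls were tested on simulated data. The simulation drew counting error around a shared profile, with set changes in some genes. It held no variation between pools, and no shift of the ribosomal RNA features was built in. It therefore cannot show whether the scaling or the calls hold in these data. Differences between classes or genes used the Woolf interval of the odds ratio. No molecular identifiers are recorded, so reads need not be separate molecules. Levels per kilobase used the annotated gene length. Nuclear copies were sought with BLAST 2.17.0 in annotated nuclear transcripts, over at least 100 bases at 90% identity or more, so copies that are not annotated as transcripts were not seen.

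The members and the gene lists were chosen with earlier results of these data known. All members were described. In each nuclear list the text named every called gene, up to 4, and the highest and lowest with 200 or more counts, and the 3 nuclear copies in the table with most counts. Polrmt, Polg, Lrpprc, Slirp and Gm42418 were singled out afterwards, with their values known. The ratios were recomputed with upper-quartile scaling, with DESeq2 1.42.0 size factors, by total counts, with TMM over nuclear protein-coding genes, other count filters, a 2-fold bound, a prior count of 5 and with nuclear copies added. Limiting the protein-coding class to genes without shared windows was added after the data were seen.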

Additional observations from a re-analysis of the deposited data

How the results depend on the processing

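By total counts, 140 genes were higher and 7077 lower, 0 mitochondrial genes were higher and 2 lower, the mitochondrial median was -0.041, and the sums of rRNA, protein-coding and tRNA genes were at 0.34, 0.16 and -0.56. The median of all genes moved to -0.83 there, and of the called genes named here, mt-Nd2 (-0.054) and Vwf (-0.031) changed sign. Of other genes called higher, Polg2, Gzmb, Cd247, Cd4, Gp1ba, Gp9, F13a1 and Gm26917 were not called there. Ngrn was not called with DESeq2 size factors, upper-quartile scaling, nuclear TMM or 200 or more counts, Sdhb was not with 200 or more counts, S100a9 not with nuclear TMM and Vwf not with no filter. Under the other scalings and filters, 9 mitochondrial genes were higher and 0 lower each time. The rRNA and protein-coding sums were 1.17 and 0.996 with DESeq2 size factors and with upper-quartile scaling, 1.18 and 1.01 with TMM over nuclear protein-coding genes, 1.09 and 0.92 with no filter, and 1.19 and 1.02 with 200 or more counts. With 200 or more counts, 491 genes were higher and 130 lower, and with no filter 322 were lower; the filters changed the genes entered. The 2-fold bound, stricter by construction, gave 294 higher and 42 lower, with 4 mitochondrial genes higher. Limited to protein-coding genes without shared windows, that sum was 0.97 and the rRNA class stood 0.19 above it. Differences between classes and strands do not depend on scaling. No paired analysis was possible because each genotype had 1 library, and for the same reason no replicate could be left out. Depth limits the tRNA genes most: with 6 to 61 counts in miR-146a-/-, the interval of mt-Tq, for example, ran from -0.98 to 2.02 on the log2 scale.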
